A study of Schizosaccharomyces pombe with 2 samples.

Results

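In the fission yeast Schizosaccharomyces pombe, RNA can end on the strand opposite to a coding gene, just outside that gene's start. The regions described are the 500 nt (positions 1 to 500) upstream of the annotated start of each coding gene, read on the strand opposite to the gene. A window was kept where no annotated gene lay on the counted strand and no gene on that strand ended within 1000 nt before it. Of 5113 coding genes, 327 had such a window: 4119 windows overlapped a gene, 666 lay within 1000 nt past a gene end and 1 ran off a chromosome. Each window is named by the coding gene downstream of it, and no kept windows shared positions on the same strand.

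Poly(A) site-supporting (PASS) reads, which mark the last base before a poly(A) tail, were counted in total RNA from 2 libraries, 1 per group. In the nmt1-SEB1 strain seb1 stands under the nmt1 promoter, and the other strain was wild type. Both cultures were in minimal medium plus thiamine, the vitamin that shuts down nmt1. The labels also describe the first strain as a knock-out, while the series design text speaks of a knockdown. No other allele is given, and neither label says whether the library came from pooled cultures or 1 clone. The libraries held 3376142 and 2702105 reads, of which 3373116 and 2697953 lay on the nuclear chromosomes, so that 1 read is worth 0.296 and 0.371 RPM, the usual depth-scaled read count, taken here relative to the nuclear reads. The gene seb1 itself had 826 reads in the nmt1-SEB1 library against 1848 for wild type, a log2 ratio of -1.48. Because each group is a single library, no spread between replicates is known and no test was made. Every ratio is of RPM, nmt1-SEB1 over wild type, with an exact conditional binomial 95% interval that covers counting error only, since reads of 1 PCR origin cannot be told apart in the files. Where a pair of read counts follows, the nmt1-SEB1 library comes first and wild type second.

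Seb1 is the fission yeast relative of budding yeast Nrd1, an RNA-binding protein that also binds the C-terminal domain of RNA polymerase II and acts in 3′ end formation. A poly(A) site is made when the cleavage and polyadenylation machinery cuts a nascent RNA, often after a signal such as AATAAA, and adds a tail. Antisense RNA that starts near or within genes is usually short-lived, because the nuclear exosome degrades much of it.

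The sequences around the poly(A) site with the most reads are given for 8 windows, chosen for the largest ratios of reads or the most wild-type reads. Positions within 24 nt of a peak were joined into a site. Each begins 49 nt before the site, so that base 50 is the site, and runs 100 nt past it, 5′ to 3′ on the counted strand. Capitals mark AATAAA or AATGAA in the first 50 nt and TGTA in the 100 nt after. Sequence and coordinates are from the RefSeq genome, named ASM294v3. The first set is of the windows with the largest ratios among those with reads in both libraries, met10 at chrIII:1529938-1530087 (+ strand), gmh4 at chrII:1389245-1389394 (- strand) and raf2 at chrIII:500392-500541 (- strand).
met10: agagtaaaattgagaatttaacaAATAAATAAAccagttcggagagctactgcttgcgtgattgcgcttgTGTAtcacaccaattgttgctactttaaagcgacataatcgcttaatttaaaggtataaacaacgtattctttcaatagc
gmh4: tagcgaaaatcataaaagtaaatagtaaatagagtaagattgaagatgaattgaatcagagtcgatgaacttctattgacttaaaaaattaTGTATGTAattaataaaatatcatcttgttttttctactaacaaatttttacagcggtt
raf2: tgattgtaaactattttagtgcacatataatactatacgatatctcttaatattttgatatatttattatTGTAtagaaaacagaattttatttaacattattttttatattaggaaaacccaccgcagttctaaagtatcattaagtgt
The second set has the most wild-type reads, tms1 at chrII:291978-292127 (+ strand), get3 at chrI:3636439-3636588 (- strand), cdt1 at chrII:477089-477238 (- strand), SPCC569.03 at chrIII:2431554-2431703 (+ strand) and erj5 at chrI:3326289-3326438 (- strand).
tms1: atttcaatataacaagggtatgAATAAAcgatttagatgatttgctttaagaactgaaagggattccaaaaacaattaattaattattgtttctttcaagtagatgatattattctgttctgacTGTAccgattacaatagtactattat
get3: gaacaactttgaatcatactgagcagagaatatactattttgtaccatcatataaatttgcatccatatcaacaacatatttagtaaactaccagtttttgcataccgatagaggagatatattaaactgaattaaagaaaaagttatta
cdt1: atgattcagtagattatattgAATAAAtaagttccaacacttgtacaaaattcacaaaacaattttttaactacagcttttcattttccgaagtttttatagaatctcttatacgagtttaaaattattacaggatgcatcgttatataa
SPCC569.03: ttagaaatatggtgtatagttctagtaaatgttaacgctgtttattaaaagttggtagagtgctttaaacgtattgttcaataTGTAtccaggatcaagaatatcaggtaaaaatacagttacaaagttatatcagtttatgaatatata
erj5: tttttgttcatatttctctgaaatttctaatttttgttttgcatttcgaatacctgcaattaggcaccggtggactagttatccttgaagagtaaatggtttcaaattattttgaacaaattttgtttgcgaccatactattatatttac
The signal stood before the sites of met10, tms1 and cdt1 and not before those of the other 5. TGTA, whose bases include the GTA that Seb1 is known to bind, followed the sites of met10, gmh4, raf2, tms1 and SPCC569.03.

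The 327 windows held 4332 nmt1-SEB1 and 851 wild-type reads, or 1284 and 315 RPM. The ratio was 4.07 (3.78 to 4.39), a log2 ratio of 2.03. The log2 ratio was 1.36 under TMM scaling, 1.26 under median of ratios and 0.71 with each position counted once. In that last setting each library was scaled by its own number of nuclear positions with reads. Positions in the whole library numbered 213060 for nmt1-SEB1 and 114578 for wild type. Of the windows, 205 had reads in the nmt1-SEB1 library (62.7%) and 134 in the wild-type library (41.0%). With the nmt1-SEB1 library thinned to the wild-type depth, 192 windows (58.7%) had reads. In all, 120 windows had reads in both libraries, 85 only in nmt1-SEB1, 14 only in wild type and 108 in neither library. The windows seen only in nmt1-SEB1 had at most 35 reads and those only in wild type at most 5, so for most of them absence was not detectable at this depth: a count of 0 allows 3 reads, 0.889 RPM for nmt1-SEB1 and 1.11 RPM for wild type.

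A window was called higher or lower where its reads in both libraries came to 20 or more, with a ratio of at least 2 or at most 0.5, and an interval excluding 1. The 50 windows with enough reads had a median of 35 reads in the nmt1-SEB1 library (10 to 471) and 4 in wild type (0 to 177). Of these, 42 were called higher (84.0%), 0 lower (0.0%) and 8 neither. Only 5 of the 50 had 20 or more reads in each library, and the others could not reach the minimum on wild-type reads alone. The share called higher and the median ratio of the 50 therefore depend in part on this filter. The count of higher windows was 35 under TMM and 33 under median of ratios, each with 2 lower, and 5 of 12 with each position counted once. The 8 uncalled windows included all 4 whose RPM was below wild type. Those 4, named after their values were seen, were erj5, SPBC12C2.04, ggt2 and pma2. The median log2 ratio of the 50 was 2.68, with 3 windows that had 0 wild-type reads entered at their bound. The 277 windows under 20 reads held 718 and 212 reads, a ratio of 2.71 (2.32 to 3.17). The higher level was thus present in windows with many reads and in windows with few.

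**Figure D1:**
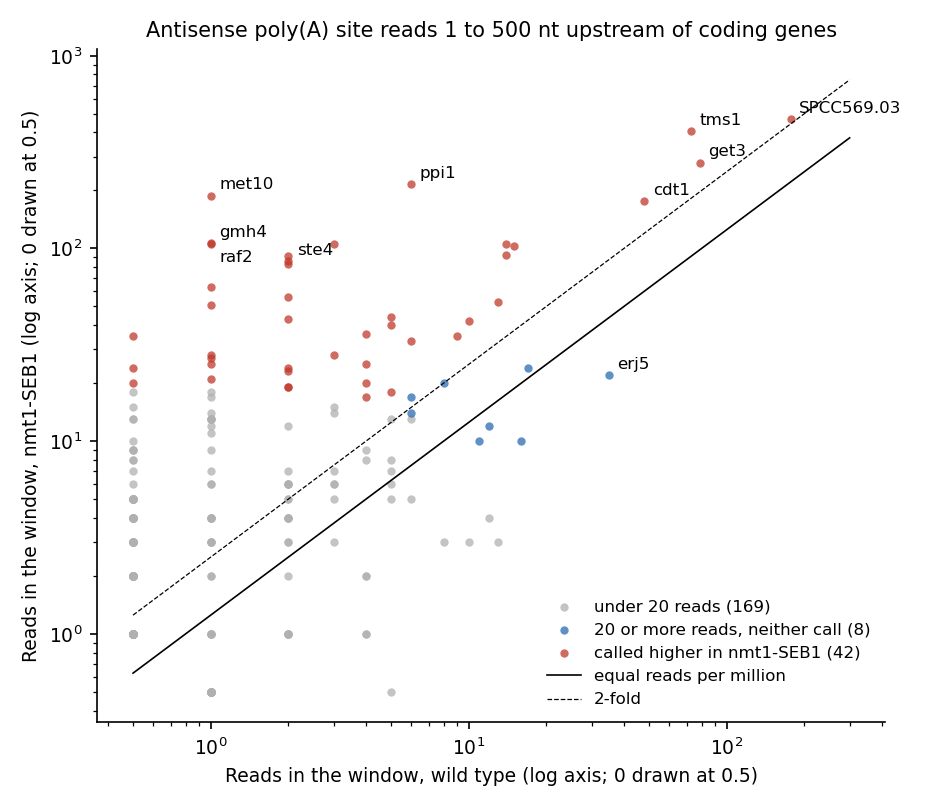
Reads in each window in wild type (x axis) and nmt1-SEB1 (y axis), both log axes, for windows with any reads. The 42 windows called higher lie above the 2-fold line and erj5 lies below the line of equal RPM.

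The 10 windows with the highest mean RPM held 49.5% of the nmt1-SEB1 and 50.5% of the wild-type window reads. Without them the ratio was 4.16 (3.75 to 4.63). The window with the most reads was that of SPCC569.03, an uncharacterized protein gene near an end of chromosome III, with 471 nmt1-SEB1 and 177 wild-type reads. It had the smallest ratio called, 2.13 (1.79 to 2.54), a call that was lost under TMM (log2 ratio 0.43) and median of ratios (0.32). Of its reads, 377 and 174 ended at a single position 152 nt from the gene start. Without this window the ratio over all windows was 4.58 (4.22 to 4.98).

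tms1 encodes a hexitol dehydrogenase, and its window had 407 and 73 reads, a ratio of 4.46 (3.47 to 5.80). get3 encodes the ATPase that delivers tail-anchored proteins to the endoplasmic reticulum, and its window had 279 and 79 reads, a ratio of 2.82 (2.19 to 3.67). cdt1 encodes a factor that licenses replication origins, and its window had 176 and 48 reads, a ratio of 2.93 (2.12 to 4.12). These 3 and SPCC569.03 are the windows with the most reads in wild type, and each was called higher. Under TMM get3 (log2 ratio 0.83) and cdt1 (0.89) lost that call as SPCC569.03 did. With each position counted once, tms1 (-0.16), get3 (-0.76) and cdt1 (-0.74) turned to the other direction relative to the library's total positions. The exception among the 5 windows with the most wild-type reads was that of erj5, a DNAJ-domain protein gene, with 22 and 35 reads. Its ratio of 0.503 (0.281 to 0.881) missed the lower call by its size alone, and it was called lower under TMM, under median of ratios and in thinned libraries.

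In other windows with many nmt1-SEB1 reads, wild type had few. The window of met10, which encodes the flavoprotein subunit of sulfite reductase, had 188 nmt1-SEB1 reads and 1 wild-type read. That was the largest ratio of a window with reads in both libraries, 150 with an interval from 26.7 upward (to 5970). The window of ppi1, which encodes a cyclophilin, had 216 and 6 reads, a ratio of 28.8 (13.0 to 79.3). With 1 or 2 wild-type reads the intervals span more than a factor of 10, so these ratios are not ranked further.

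The window of gmh4, a galactosyltransferase gene, had 107 and 1 reads. The gene ending before it, SPBC8D2.18C, had 13244 and 35161 reads, and the stretch from that gene's end to the window 7266 and 10857, so reads before the window were lower in nmt1-SEB1 and reads in the window higher. The window of raf2, which encodes a subunit of the CLRC complex of heterochromatin, had 106 and 1. gep4, which encodes a phosphatase of cardiolipin synthesis, had 105 and 3 in its window, and 615 and 69 antisense reads in the first 1000 nt inside its start. SPAC29A4.02C, which encodes the gamma subunit of translation elongation factor EF-1, had 91 and 2. The windows of these 4 genes had at most 3 wild-type reads each.

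The window of ste4, which encodes an adaptor of the mating MAP kinase cascade, had 86 and 2 reads. Its divergent neighbour utp8 had 43 and 2 in its own window on the other strand, so both strands of this shared stretch were called higher. The window of pcf3, a chromatin assembly factor subunit gene, had 83 and 2 reads, SPAC22H10.05C, a cleavage factor subunit gene, 63 and 1, and SPAC11D3.11C 51 and 1. Several windows with more wild-type reads lay between these and the first group: meu7 (alpha-amylase) had 105 and 14 reads, hem13 (heme synthesis) 103 and 15, and rps7 (a ribosomal protein) 93 and 14. Their log2 ratios were 2.58, 2.46 and 2.41, and all 3 were called higher. With each position counted once, meu7 (-0.53) and hem13 (-0.35) turned to the other direction relative to the library's total positions. The lowest ratios called among windows with 50 or more reads were, after those of SPCC569.03, get3 and cdt1, at spn5, a meiotic septin gene, with 53 and 13 reads, and at rdi1, with 42 and 10. Their ratios were 3.26 (1.75 to 6.52) and 3.36 (1.66 to 7.51), and both calls were lost under median of ratios.

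**Figure D2:**
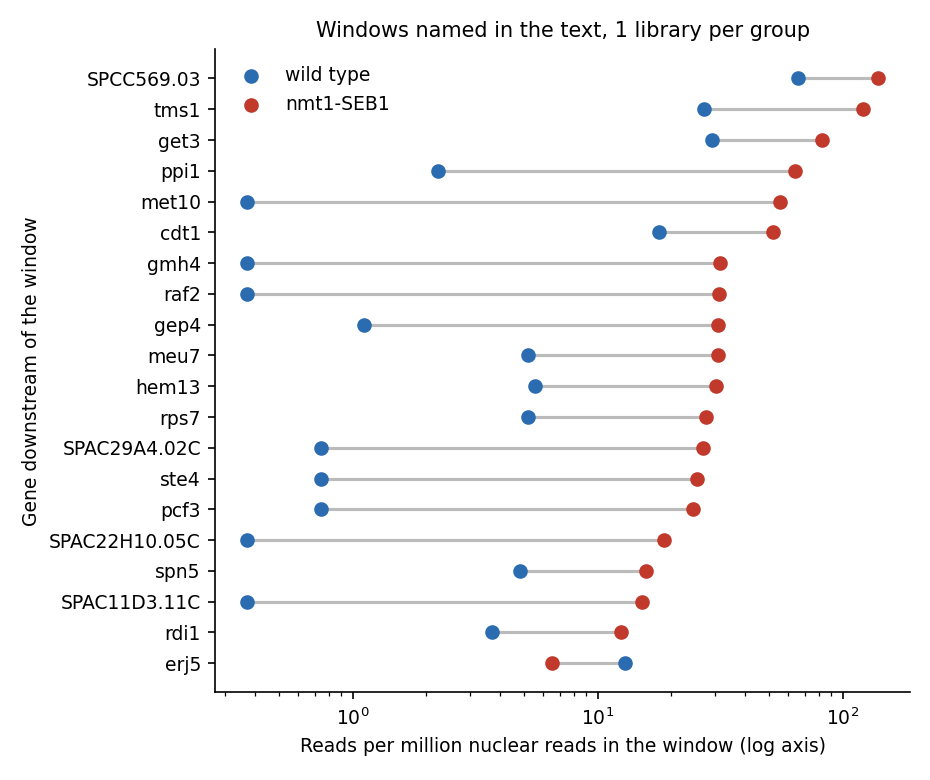
RPM in nmt1-SEB1 and wild type (log axis) for the 20 windows named by rule, 1 library per group, each line joining the libraries of 1 window. Only erj5 has the higher level in wild type.

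Reads were absent from wild type in 3 called windows, which were named after their values were seen. nop52 had 35 reads, rec6 24 and uro1 20, at least 9.33-fold, 6.40-fold and 5.33-fold higher against a floor of 3 reads per library, while the lower 95% limits of the ratios were 7.20, 4.81 and 3.95. The window of sno1 had 33 and 6 reads, and the next gene on its counted strand was seb1, 740 nt further on. The window of pcf11, whose product acts in cleavage and termination, had 3 and 13 reads and so fell under the read minimum.

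The same call was made on other sets. Of 2605 upstream antisense windows whose only genes on the counted strand were long non-coding RNAs (lncRNAs), 562 had enough reads: 77.6% were higher and 5.34% lower. Of 3145 other gene-free tiles of 500 nt, 246 had enough reads, with 76.4% higher and 6.5% lower. Of 532 upstream windows on the gene's own strand with the same filters, 79 had enough reads, with 63.3% higher and 13.9% lower. Coding genes, counted on their own strand, gave 25.6% higher and 17.3% lower of 4701, and all genes 46.2% and 11.9% of 7648. TMM changed the split for coding genes to 650 higher and 1550 lower, from 1203 and 812. The median log2 ratios were 2.85 for the lncRNA windows, 2.91 for the tiles, 1.91 for the own-strand windows, 2.85 for lncRNAs and 0.18 for coding genes. Of the tiles, those lying mostly antisense to a coding gene were 84% higher with a median of 3.26, and the rest 57.7% higher with a median of 1.68. The kept windows were thus above own-strand windows and the latter tiles in their share and median. Their median was below those of the antisense tiles and lncRNA windows, though their share was not. By the ratio over all reads, the kept windows (4.07) were near own-strand windows (3.77) and lncRNAs (4.01) and above the latter tiles (2.90). On that measure they were below all tiles (4.46), the lncRNA windows (5.44) and the antisense tiles (6.52). Without the window of SPCC569.03 the kept windows had 4.58, above all tiles, with no feature left out of the other sets. None of these differences was tested.

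**Figure D3:**
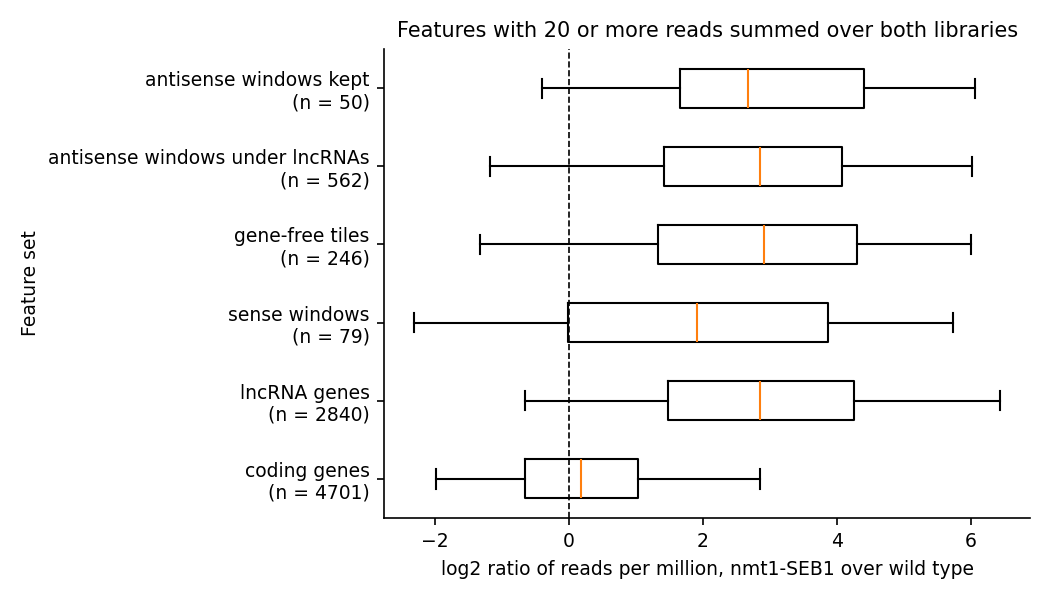
Log2 ratios of features whose reads over the 2 libraries came to 20 or more: the line is the median, the box the quartiles and the whiskers the 5th and 95th percentiles. The kept windows (median 2.68) lie above own-strand windows (1.91) and coding genes (0.18).

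Along the counted strand the difference ran through the gene start rather than beginning at it. In the nearest 250 nt upstream there were 2672 and 526 reads, a ratio of 4.06 (3.70 to 4.47), and in the next 250 nt 1660 and 325, a ratio of 4.09 (3.63 to 4.62). In the first 500 nt from the start inward (past the end of shorter genes), antisense reads numbered 2773 and 458, a ratio of 4.84 (4.39 to 5.36). In the next 500 nt inward they numbered 4294 and 1294, a ratio of 2.65 (2.49 to 2.83). Over the first 1000 nt inside the start the ratio was 3.23, and 4.58 without stm1, which with 494 and 605 reads had the most there in wild type. The level there was higher in nmt1-SEB1 at 213 of the 327 genes and lower at 28, with no read minimum set for this count. Genes with very few reads, all from nmt1-SEB1, thus count as higher, and the greater depth of that library favours such cases. No other set of genes was counted this way, so the split has no background to be set against.

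**Figure D4:**
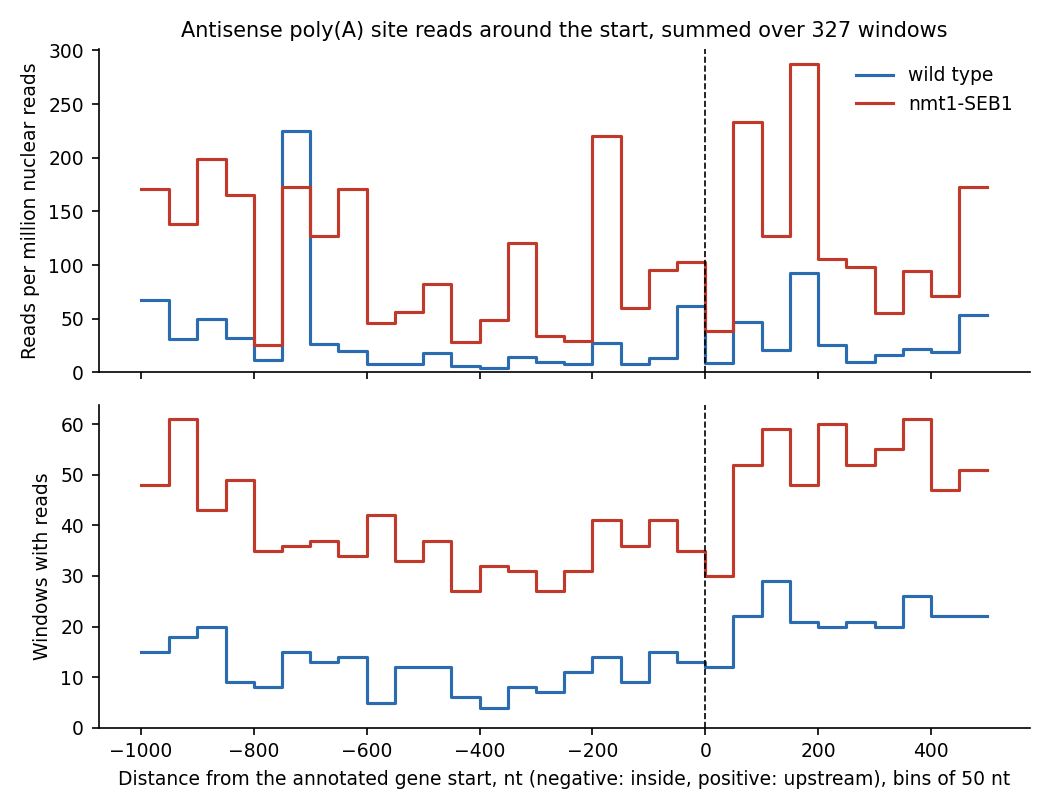
Antisense RPM (top) and number of windows with reads (bottom) in bins of 50 nt from 1000 nt inside the gene to 500 nt upstream, summed over the 327 windows. The nmt1-SEB1 line lies above wild type in every bin except the one with the wild-type peak, where 562 of the 607 wild-type reads are from stm1.

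Reads that run on past a gene could reach a window, so the windows were split by the distance to the gene ending before them. Windows 1000 to 2000 nt away (215) had a ratio of 4.88 (4.45 to 5.37), with 29 of 34 called higher. Windows 2000 to 4000 nt away (99) had 2.61 (2.30 to 2.97), with 12 of 14 called higher. Of the 1034 and 317 reads in that class, 471 and 177 were from SPCC569.03. The median log2 ratio of windows with enough reads was 2.63 at 1000 to 2000 nt and 2.79 at 2000 to 4000 nt. The 13 windows over 4000 nt away had 7.26 (4.09 to 14.0), with 1 of 2 called higher. Of the reads over 4000 nt away, 91 and 2 were from SPAC29A4.02C, and the other 12 windows had 27 and 11, a ratio of 1.96 (0.943 to 4.39). Over all gene-free windows the ratio was 12.2 (11.1 to 13.5) within 250 nt of a gene end and between 3.59 and 8.69 in the classes from 1000 to 2000 nt. The part of run-on reads in the window values was not tested. Where the window had more reads than the whole stretch between it and the gene end, a split chosen after seeing the data, 20 of 23 windows were called higher, with a ratio of 3.75 (3.41 to 4.14). Where that stretch had as many reads as the window or more, 22 of 27 were called higher, with a ratio of 7.66 (6.37 to 9.28). The split uses the window reads themselves.

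**Figure D5:**
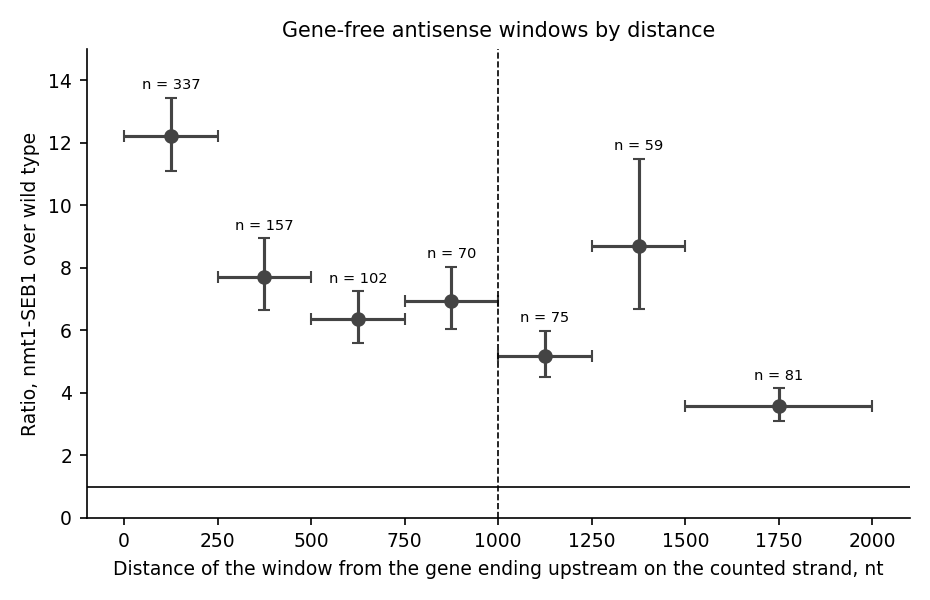
Ratio with its 95% interval for gene-free antisense windows, by distance from the gene ending before them on the counted strand; horizontal bars span each class and the dashed line marks the 1000 nt rule. The ratio is 12.2 in the nearest class.

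The ratio was above 1 whatever lay around the window. Where the gene ending before it was coding (146 windows) the ratio was 3.80 (3.49 to 4.14), and where it was an lncRNA (167) 4.49 (3.84 to 5.27). In the other 14 windows it was 9.83 (5.995 to 17.2). Where the next gene on the counted strand began within 500 nt of the window (165) the ratio was 4.98 (4.46 to 5.57), and where it was further away (162) 3.37 (3.05 to 3.73). With no gene on the other strand of the window (181) it was 4.80 (4.29 to 5.39), and with a coding gene there (74) 4.02 (3.42 to 4.74). Chromosomes I, II and III gave 4.01, 5.07 and 3.37, with 21 of 25, 11 of 12 and 10 of 13 windows called higher. Of the 1216 and 289 reads on chromosome III, 471 and 177 were from SPCC569.03, so its ratio rests largely on 1 window. The median log2 ratios of windows with enough reads were 2.46, 2.79 and 2.68.

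The distance rule left windows of few reads on both sides of it. Just inside lay cox19 (1002 nt), mfs2 (1003 nt), rpl15 (1004 nt), yop1 (1011 nt) and mnh1 (1013 nt), with 0 reads except 1 wild-type read at yop1. Just outside lay vma21 (999 nt), ste11 (997 nt), coa6 (990 nt), acs1 (987 nt) and rpb4 (983 nt), with at most 5 reads.

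Long terminal repeats (LTRs), remnants of retrotransposons, overlapped 40 of the 327 windows. These windows held 401 and 12 reads, a ratio of 26.7 (15.1 to 52.2), against 3.75 (3.48 to 4.04) for the other 287. The split was made after the data were seen, and 188 and 106 of the 401 reads came from met10 and raf2. In raf2, 99 of the 106 nmt1-SEB1 reads lay in an LTR on the counted strand, and in met10 2 of 188 lay in one. The 50 nt ending at the site with the most reads in each of the 50 windows with enough reads matched the nuclear genome at 1 place.

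Within the 50 windows there were 110 sites with 5 or more reads, of which 67 were seen in both libraries, 42 only in nmt1-SEB1 and 1 only in wild type. These windows held 3614 nmt1-SEB1 and 639 wild-type reads. A site near the minimum can thus lack wild-type reads through the lower wild-type level alone. The split therefore does not show that any site is particular to nmt1-SEB1. A window held a median of 2 sites (1 to 6). The site with the most reads lay at a median of 230.5 nt from the gene start, within 100 nt in 8 windows, between 100 and 300 nt in 21 and beyond 300 nt in 21. This choice of site was made after the data were seen. The main rule, which takes the position with the largest mean share of both libraries' reads, can let a single wild-type read set the site. It placed the site over 24 nt away in 10 windows and gave a median of 302 nt.

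Both libraries had 20 or more reads in 5 windows, in which the mean position could be compared. Mean distances from the gene start were 472 and 474 nt at get3, 199 and 203 nt at cdt1, 80.1 and 69.7 nt at tms1 and 173 and 154 nt at SPCC569.03. At erj5 they were 462 and 442 nt, the only 1 of the 5 to differ by 20 nt or more. In libraries thinned to equal depth the only such window was SPCC569.03 in place of erj5. At rps7, with 14 wild-type reads, the site 468 nt from the start held 82.8% of the nmt1-SEB1 and 7.14% of the wild-type reads.

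AATAAA or AATGAA stood in the 50 nt before the site with the most reads in 15 of 50 windows, 30% (Wilson 95% interval 19.1 to 43.8), against 31.2% of 4701 coding genes at their own site with the most reads. TGTA was in the 100 nt after it in 27 of 50, 54% (40.4 to 67.0), against 58.6%. At 1 of the 50 sites, 2%, 7 or more A followed in the next 10 nt, against 0.808% at coding genes. With sites chosen by the largest mean share these were 28%, 54% and 0 sites. Whole windows, searched on the counted strand, held the signal in 76.8% of kept windows and 76.0% of all 5112 upstream windows that fit on a chromosome.

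The genes downstream of the windows were called in both directions. Of 281 genes of kept windows with enough reads on their own strand, 77 were higher (27.4%) and 61 lower (21.7%), beside the 25.6% and 17.3% of all coding genes. For 44 genes with both values the window and gene log2 ratios had a Pearson correlation of -0.22 and a Spearman rank correlation of -0.14, a description across genes that share both libraries. ste4 itself had 87 and 745 reads and met10 38 and 131, both lower, with log2 ratios of -3.42 and -2.11, while their windows were higher. tms1 itself had 25 and 4 reads and was higher, with a log2 ratio of 2.32.

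Genes known to degrade or prevent such RNAs were called in both directions. Of 19 nuclear exosome and surveillance genes with enough reads, 5 were higher (rrp6, mtr4, rrp41, red1 and red5) and 3 lower (pla1, air1 and cti1), with a median log2 ratio of -0.33. The exosome nuclease gene rrp6 had 361 and 88 reads and the helicase gene mtr4 265 and 100, both higher, while the poly(A) polymerase gene pla1 had 82 and 183 and was lower. Of 19 cleavage and termination genes 3 were higher (rna15, cft2 and dis2) and 7 lower (pfs2, seb1, swd22, sen1, ysh1, din1 and cft1), with a median of -0.11. Among the latter the helicase gene sen1 had 247 and 1261 reads, a log2 ratio of -2.67. Of 20 chromatin factor genes 6 were higher (cph2, alp13, hrp3, clr6, spt16 and hip1) and 3 lower (cph1, slm9 and asf1), with a median of 0.20. The histone deacetylase gene clr6 had 115 and 20 reads, and the histone chaperone gene asf1 47 and 135. Of all coding genes 25.6% were higher and 17.3% lower, with a median of 0.18. The balance of these lists turned with the scaling. Under TMM the exosome list had 2 higher and 9 lower, the cleavage and termination list 1 and 9, and the chromatin list 4 and 5, and under median of ratios 0 and 13, 0 and 9, and 3 and 6. All coding genes moved the same way, to 13.8% higher and 33.0% lower under TMM and 12.2% and 36.2% under median of ratios. Under TMM each log2 ratio is lower by 0.66.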

How the data were processed

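The authors deposited whole-number raw counts of PASS reads per position and strand, 1 table per library. The submitters' processing notes name Bowtie2 and the build ASM294v2, and the Bowtie2 version is not given in the sources used here. RefSeq's genome and annotation, read here, are named ASM294v3. In 14 blocks of 1 Mb, 36.5 to 46.6% (nmt1-SEB1) and 32.7 to 44.7% (wild type) of coding genes had their top position within 50 nt of the annotated end. Whether positions count from 0 or 1 is not stated, so sites may be off by 1 nt. The annotated start was the coding start for 57 of the 327 windows.

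Counts were summed per window, divided by nuclear reads, and compared by ratio with exact conditional binomial intervals (Python 3.11.15, scipy 1.17.1). A count of 0 was entered at 3 reads. Reads outside genes were assigned to a gene ending up to 1000 nt before them. TMM (edgeR 4.0.16) and median-of-ratios (DESeq2 1.42.0) factors served only as alternative scalings. The call was also run on simulated gene counts with counting error only, which cannot show the spread between cultures. Windows were named as the 10 with the highest mean RPM, the 10 highest and 5 lowest log2 ratios among called windows with 50 or more reads, and the 5 with the most wild-type reads. The windows, lists and rules were chosen with earlier results of these data known. Alternatives covered scaling, depth, read minimum, window length, gene distance, annotation, position counting and left-out windows.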

Additional observations from a re-analysis of the deposited data

Results flagged for a closer look

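Outside the nuclear chromosomes, the contig named MTR had 62 nmt1-SEB1 and 18 wild-type reads, a ratio of RPM of 2.76 (1.61 to 4.95). It was singled out because it is outside the windows and above the wild-type level.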

How the results depend on the processing

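No paired analysis was possible because each group has 1 library. The log2 ratio over all windows, 2.03, kept its direction under every alternative run. It was 1.36 under TMM, 1.26 under median of ratios, and 1.48 and 1.26 with no gene end within 2000 and 5000 nt. At 5000 nt only 7 windows remained, and the interval, -0.0252 to 2.74, included 0. The value was 2.64 from the coding start, 2.46 with lncRNAs ignored, 0.71 with each position counted once and 2.29 without positions under 2 reads. It was 2.20 without the window with the most reads and 2.15 without chromosome III and chromosome ends. The count of 42 higher of 50 windows became 20 of 21 at a minimum of 50 reads, 65 of 219 with no minimum, 23 of 24 in windows of 250 nt, 13 of 16 and 0 of 1 at 2000 and 5000 nt, 538 of 679 with lncRNAs ignored and 5 of 12 with each position once (pcf3, SPAC29A4.02C, ppi1, gep4 and met10). The count of 0 lower windows became 2 under TMM and 2 under median of ratios (erj5 and SPBC12C2.04), 1 thinned (erj5), 3 at a minimum of 10 reads (pcf11, SPCC11E10.09C and ppe1), 4 with no minimum (those and coa2), 1 from the coding start (SPCC11E10.09C) and 31 with lncRNAs ignored. The median log2 ratio, 2.68, became 2.01 under TMM, 1.91 under median of ratios, 4.49 at 50 reads, 0.68 with no minimum, 0.90 at 5000 nt and 1.31 with each position once. With no minimum a count of 0 still enters at 3 reads. Windows with 1 or 2 reads in only 1 library then take the opposite sign, as sdh2 with 1 and 0 reads (-1.91) and tgs1 with 0 and 1 (1.26). The value of 0.68 depends in part on that floor. The count of windows with a further mean distance, 1 (erj5), became 4 at 10 reads (ggt2, rps7, erj5 and meu7) beside 2 closer, 48 with no minimum beside 37 closer, 23 with lncRNAs ignored beside 6 closer, and 0 at 50 reads, in 250-nt windows, at 2000 and 5000 nt, from the coding start, with each position once and without positions under 2 reads. The alternatives chosen after seeing the data used fewer windows: those with more reads than the stretch before them gave a log2 ratio of 1.85 and 20 of 23 higher windows, and the set without the 10 windows with the most reads gave 2.06. Counted by position, 6 named windows reversed, spn5 to -0.41, tms1 to -0.16, get3 to -0.76, cdt1 to -0.74, meu7 to -0.53 and hem13 to -0.35. These values are relative to each library's total of positions with reads, which was larger in nmt1-SEB1. A reversal thus does not by itself mean fewer positions in nmt1-SEB1. The cause of the difference between reads and positions was not tested. Scaling moved all log2 ratios by -0.66 (TMM) or -0.77 (median of ratios). With 1 library per group no spread between cultures is known, and most windows have too few reads for a single-window call.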
